A study of Homo sapiens with 6 samples.

Results

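The NRF2 antioxidant response was examined through 9 genes chosen by name: *NFE2L2*, which encodes the transcription factor NRF2, and *NQO1*, *HMOX1*, *GCLM*, *GCLC*, *TXNRD1*, *SRXN1*, *AKR1C1* and *AKR1B10*, which are widely used as readouts of its activity. All 9 had a row among the 39739 gene rows listed for each library. The 6 RNA-seq libraries came from cells that overexpressed the *FN1* 3′-UTR (HGC27-FN1 3′-UTR, n = 3) or did not (HGC27-control, n = 3). The parent line HGC27 was established from a gastric cancer, and all cells were grown in RPMI-1640 medium with fetal bovine serum. For stable overexpression of the *FN1* 3′-UTR, cells were infected with lentiviral particles and kept under puromycin, and resistant cells were collected, so the overexpressing line is a selected population rather than a stated clone. What the control cells carried is not given in the sources used here. The labels do not say whether replicates were separate cultures, so the p-values measure only the spread between these libraries, which may be technical.

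NRF2 is held at low levels in unstressed cells because KEAP1 hands it to a CUL3 ubiquitin ligase. Oxidants and electrophiles modify KEAP1, NRF2 accumulates, pairs with a small MAF protein and binds antioxidant response elements near its target genes. Because this control acts mainly on the protein, the *NFE2L2* transcript is not itself a measure of NRF2 activity, and the target genes are read instead. The targets make glutathione, reduce thioredoxin and sulfiredoxin substrates, break down haem and quinones, and supply NADPH. In gastric and other epithelial cancers the pathway is known for raising tolerance of oxidants and of drugs.

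The core of the antioxidant response element was searched as TGACNNNGC on both strands of RefSeq promoters, from 250 bases before to 50 bases after each start, on build GRCh38.p14. Its first 4 letters can be part of an AP-1 element, searched as TGANTCA. Of the 9 genes, 7 had a promoter entry, and *HMOX1* and *AKR1B10* had none. The core was found in *GCLM* and *TXNRD1*, that is in 2 of 7 genes, beside 16.1% of all 27305 gene symbols with a promoter entry and 13.3% of all 35116 promoters. The matches are shown because *TXNRD1* was the member that passed the test between the groups and *GCLM* is a target that did not. Each match is printed along the gene's own strand with up to 10 bases on either side, in lower case, with the core in capitals, and a core that begins with GC lies on the opposite strand.
GCLM, chr1:93909446-93909474, reverse strand: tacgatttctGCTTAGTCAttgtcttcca
TXNRD1 upstream start, chr12:104215670-104215698, forward strand: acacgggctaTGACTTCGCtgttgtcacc
TXNRD1 upstream start, chr12:104215761-104215789, forward strand: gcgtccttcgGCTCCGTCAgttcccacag
TXNRD1 downstream start, chr12:104286920-104286948, forward strand: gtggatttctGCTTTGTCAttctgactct
None of these 4 matches overlapped an AP-1 element. The matches began 34 bases before the start in *GCLM*, and 99, 8 and 102 bases before the respective starts in *TXNRD1*. The windows of *NFE2L2*, *NQO1*, *GCLC*, *SRXN1* and *AKR1C1* did not hold these letters. A match is a description of the sequence and not evidence of binding, and more distant elements were not analysed here.

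The authors deposited RPKM, that is, read numbers divided by exon length in kilobases and by the library's assigned reads in units of 1000000. The reads behind each value could be recovered as whole numbers, and the libraries held from 16357085 to 37037532 assigned reads. *FN1* itself was at 0.777, 0.745 and 0.819 RPKM with overexpression and at 0.543, 0.474 and 0.532 RPKM in the control libraries, higher in 3 of 3 libraries, with a log2 fold change of 0.52 ± 0.11 (SE; adjusted p = 0.0292 with limma). That call was lost in 8 of 14 alternatives, among them each of the 6 in which 1 library was left out. The *FN1* row spans 17315 exon bases of the whole gene, so its level is not a measure of the 3′-UTR alone. Summed epithelial markers were at 2.93 to 3.30 RPKM in control and 18.4 to 27.3 RPKM in HGC27-FN1 3′-UTR libraries, and 5 of 6 passed the test as higher. Of these, *KRT19* reached the minimum of 0.1 RPKM only in the 3 HGC27-FN1 3′-UTR libraries. It could thus enter the test only with a difference. Summed fibroblast markers were at 168 to 171 RPKM against 114 to 132 RPKM, with 3 of 5 higher. Over all tested genes, 5.62% were called higher. Gastric epithelial markers were nearly absent, with sums of 0.142 to 0.238 RPKM over the 5 with a row, and so were endothelial markers, with sums of at most 0.0222 RPKM. Leukocyte markers summed to 2.90 to 3.18 RPKM against 3.11 to 3.60 RPKM, and the defining marker *PTPRC* averaged 0.00910 RPKM in control and 0.00952 RPKM in HGC27-FN1 3′-UTR libraries.

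The levels of the 9 genes spanned a wide range, and the order of the highest 7 was the same in every library. *NQO1* stood highest with a mean of 63.7 RPKM over the 6 libraries, followed by *TXNRD1* at 29.9, *SRXN1* at 16.3, *NFE2L2* at 8.72, *HMOX1* at 5.23, *GCLC* at 4.35 and *GCLM* at 2.28 RPKM. *AKR1B10* and *AKR1C1* lay far below, at means of 0.129 and 0.0941 RPKM. Among these neighbours, the ranges over the 6 libraries overlapped only for *AKR1B10* and *AKR1C1*. Genes entered the test when 3 or more libraries reached 0.1 RPKM, and among these 23299 genes *NQO1* lay at percentile 96.6 of mean level and *TXNRD1* at percentile 92.6. *SRXN1* lay at percentile 87.0, *NFE2L2* at 78.3, *HMOX1* at 68.9, *GCLC* at 65.4 and *GCLM* at 52.2.

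**Figure D1:**
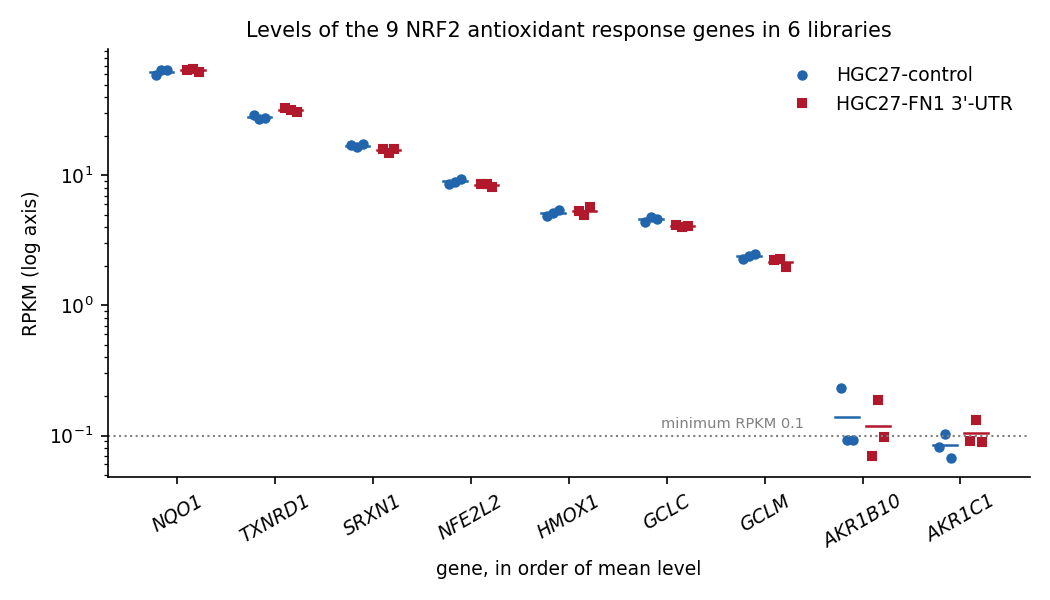
RPKM (log axis) of the 9 genes in each library, in order of mean level. Circles are the 3 HGC27-control libraries, squares the 3 HGC27-FN1 3′-UTR libraries and short lines the group means. Levels fall from 63.7 RPKM for *NQO1* to 0.0941 RPKM for *AKR1C1*, and the groups lie close together for every gene.

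The comparison of HGC27-FN1 3′-UTR with HGC27-control cells asked how the transcriptome differed when the *FN1* 3′-UTR was overexpressed. Of the 9 genes, 7 reached the minimum RPKM and were tested. *TXNRD1* was higher in HGC27-FN1 3′-UTR cells, by 13.4%, and the other 6 did not pass the test. Over all 23299 genes tested with limma on log2(RPKM + 0.1), 5.62% were called higher and 7.36% lower at an adjusted p under 0.05. For the members, 1 of 7 was thus called higher and 0 lower. At an unadjusted p under 0.05 there were 1 higher and 2 lower, beside 12.0% and 17.6% of all tested genes. With limma's voom on the recovered reads 1 was called higher and 1 lower, beside 8.76% and 13.2% of all tested genes. The median log2 fold change was -0.09 over the 7 genes and -0.04 over all tested genes, and the 7 values ran from -0.17 to 0.18. At the criteria used in the study for differentially expressed genes, an absolute log2 fold change above 1 with an unadjusted P under 0.05, 1.65% of all tested genes were higher and 0.815% lower, and none of the 7 qualified in this fit. In bulk RNA, a change in the share of cells that carry a transcript and a change in its amount per cell cannot be told apart.

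Groups that did not overlap were frequent in these libraries. All 3 HGC27-FN1 3′-UTR values lay above all 3 control values for 14.3% of tested genes and below them for 21.7%. Among the 7 members this was so for 1 gene in the higher direction, *TXNRD1*, and for 3 in the lower direction, *NFE2L2*, *GCLC* and *SRXN1*. An exact permutation test of 3 against 3 libraries, two-sided, cannot give a p under 0.1, and these 4 genes reached that value.

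*NFE2L2* is on chromosome 2, reverse strand, 177227595 to 177392697. It was at 8.61, 8.63 and 8.08 RPKM in HGC27-FN1 3′-UTR replicates 1 to 3 and at 8.64, 8.96 and 9.42 RPKM in the control replicates, from 842 to 2085 reads a library. The groups did not overlap, but the highest HGC27-FN1 3′-UTR library and the lowest control library were nearly equal. The log2 fold change was -0.09 ± 0.05 (SE, n = 3 and 3), with a 95% interval from -0.21 to 0.02 and an adjusted p of 0.259 with limma. The transcript of the master regulator was therefore not shown to differ, and the interval covers a fall of up to 0.21 on the log2 scale. The row of *AC074286.1* shares 17.6% of the *NFE2L2* exon bases on the same strand, with 157 reads against 8403 over the 6 libraries, and *AC079305.10* and *AGPS* share 3.2% and 0.9% on the opposite strand.

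The genes whose level over the 6 libraries was most like that of *NFE2L2*, by Pearson correlation of log2(RPKM + 0.1) among 14650 genes with a mean RPKM of at least 1, were *LINC00094*, *AMBRA1* and *ADORA2B*, with r of 0.99, 0.98 and 0.98. High values were not particular to these genes, as 169 of the 14650 exceeded 0.9. There were only 6 libraries, and the points share depth and group. Of the other members, *GCLM* was the most alike, with r of 0.95. *TXNRD1* ran against *NFE2L2*, with r of -0.64.

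Both enzymes that break down quinones and haem overlapped between the groups. *NQO1*, which reduces quinones with NADPH or NADH, is encoded on chromosome 16 (reverse strand, 69706996 to 69726951). It was at 64.8, 66.2 and 62.1 RPKM in HGC27-FN1 3′-UTR cells and at 59.1, 65.0 and 64.7 RPKM in control cells. Only control replicate 1 stood below the other 5 libraries. Its log2 fold change was 0.03, with a 95% interval from -0.08 to 0.15 and an adjusted p of 0.691 with limma. Every library held at least 3450 *NQO1* reads. The row of *CTD-2033A16.1* shares 17.7% of the *NQO1* exon bases on the opposite strand and had 766 reads beside 33222.

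*HMOX1*, the inducible haem oxygenase, is encoded on chromosome 22 (forward strand, 35380361 to 35394214). It was at 5.31, 4.92 and 5.72 RPKM in HGC27-FN1 3′-UTR cells and at 4.90, 5.10 and 5.46 RPKM in control cells, from 209 to 486 reads a library. The highest and the second lowest value both came from HGC27-FN1 3′-UTR libraries, so the groups were interleaved. For *HMOX1* the log2 fold change was 0.04, with a 95% interval from -0.13 to 0.21 and an adjusted p of 0.733. Leaving out HGC27-FN1 3′-UTR replicate 3 gave -0.01, and leaving out control replicate 1 gave -0.01 for *NQO1*, so neither gene had a settled direction.

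Both subunits of glutamate-cysteine ligase, the rate-limiting enzyme of glutathione synthesis, had lower mean levels in HGC27-FN1 3′-UTR cells without passing the test. *GCLC*, the catalytic subunit, is encoded on chromosome 6 (reverse strand, 53497341 to 53616970). It was at 4.18, 4.01 and 4.12 RPKM in HGC27-FN1 3′-UTR cells and at 4.41, 4.79 and 4.63 RPKM in control cells, from 578 to 1451 reads a library. Every HGC27-FN1 3′-UTR library was below every control library. The log2 fold change was -0.17 ± 0.05 (SE), with a 95% interval from -0.28 to -0.05, an unadjusted p of 0.0134 and an adjusted p of 0.0764 with limma. With voom on the recovered reads the adjusted p was 0.0175, the only alternative of 15 in which *GCLC* passed, and over these alternatives the adjusted p ran up to 0.216.

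*GCLM*, the modifier subunit, is encoded on chromosome 1 (reverse strand, 93885205 to 93909456). It was at 2.24, 2.30 and 1.98 RPKM in HGC27-FN1 3′-UTR cells and at 2.27, 2.42 and 2.47 RPKM in control cells, from 199 to 496 reads a library. The groups overlapped, and HGC27-FN1 3′-UTR replicate 3 was the lowest of all. For *GCLM* the log2 fold change was -0.13, with a 95% interval from -0.32 to 0.05 and an adjusted p of 0.315, and it was -0.07 without that library. The ratio of *GCLC* to *GCLM* RPKM, a comparison per length, was 1.93 ± 0.05 in control cells and 1.90 ± 0.17 in HGC27-FN1 3′-UTR cells (SD, n = 3 each). It ranged from 1.87 to 1.98 and from 1.74 to 2.08 respectively, so the ratios overlapped.

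*TXNRD1* and *SRXN1*, which serve the thioredoxin system, had fold changes of opposite sign. *TXNRD1*, cytosolic thioredoxin reductase, is encoded on chromosome 12 (forward strand, 104215779 to 104350305), and 3 cores of the antioxidant response element are printed for it above. It was at 32.8, 31.8 and 30.8 RPKM in HGC27-FN1 3′-UTR cells and at 29.1, 27.3 and 27.7 RPKM in control cells, from 3602 to 6891 reads a library. Every HGC27-FN1 3′-UTR library was above every control library, and the means were 31.8 ± 1.02 and 28.0 ± 0.952 RPKM (SD, n = 3 each). The log2 fold change was 0.18 ± 0.04 (SE), with a 95% interval from 0.09 to 0.27 and an adjusted p of 0.0309 with limma. The call held in 8 of 15 alternatives and was lost in 7, with adjusted p from 0.00110 to 0.110, while the log2 fold change stayed between 0.16 and 0.22. Leaving out any library but control replicate 1 ended the call, and the adjusted p rose most without control replicate 2, to 0.110. The summed epithelial and fibroblast markers given above also separated the groups, and their part in this difference was not tested.

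*SRXN1*, sulfiredoxin, which repairs overoxidised peroxiredoxins, is encoded on chromosome 20 (reverse strand, 646615 to 653370). It was at 16.1, 14.9 and 16.1 RPKM in HGC27-FN1 3′-UTR cells and at 17.1, 16.4 and 17.3 RPKM in control cells. All 3 HGC27-FN1 3′-UTR values were below the control values. The log2 fold change was -0.11 ± 0.04 (SE), with a 95% interval from -0.22 to -0.01, an unadjusted p of 0.0384 and an adjusted p of 0.143 with limma. Another row on the same strand, a locus known only by its clone name, shares 85.0% of the *SRXN1* exon bases and had 6022 reads beside 7079 for *SRXN1*. That row was at 13.3, 12.8 and 13.6 RPKM against 14.4, 14.0 and 14.6 RPKM, with a log2 fold change of -0.11 as well. How reads in shared exons were assigned is not given in the sources used here, so the 2 rows are not independent measurements and the level of *SRXN1* is uncertain.

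**Figure D2:**
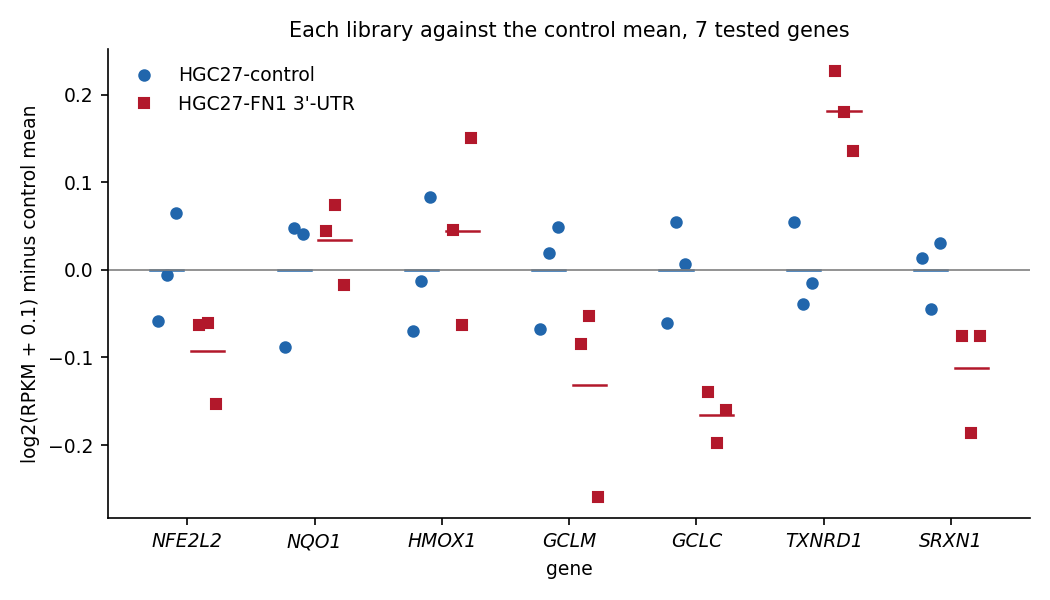
Each library's log2(RPKM + 0.1) minus the mean of the 3 HGC27-control libraries, for the 7 tested genes. Circles are control libraries, squares HGC27-FN1 3′-UTR libraries and short lines group means. Squares lie above all circles for *TXNRD1* and below all circles for *NFE2L2*, *GCLC* and *SRXN1*, and the groups overlap for *NQO1*, *HMOX1* and *GCLM*.

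**Figure D3:**
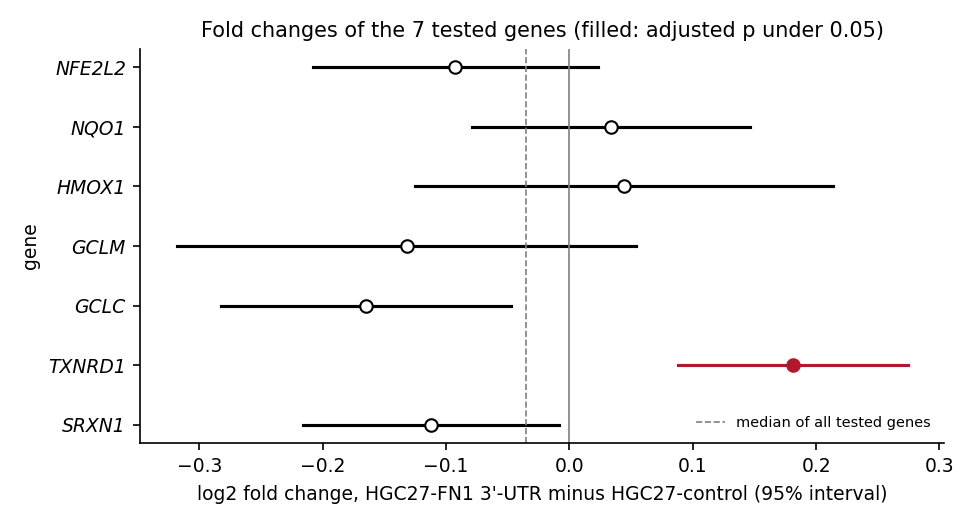
Log2 fold change (HGC27-FN1 3′-UTR minus HGC27-control) of the 7 tested genes with 95% intervals from limma. The filled point is *TXNRD1* at 0.18, the only gene with an adjusted p under 0.05, and the dashed line is the median of all tested genes at -0.04. The intervals of *GCLC* and *SRXN1* also lie below 0 without passing after adjustment.

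The aldo-keto reductases lay near the minimum of 0.1 RPKM. *AKR1C1*, a reductase of steroids and carbonyls, is encoded on chromosome 10 (forward strand, 4963253 to 4983283). It had 13, 28 and 23 reads in HGC27-FN1 3′-UTR cells and 16, 28 and 22 reads in control cells, which made 0.0907, 0.131 and 0.0899 RPKM against 0.0817, 0.104 and 0.0678 RPKM. These values overlapped, and only 2 libraries reached 0.1 RPKM, so *AKR1C1* was not tested. Its near copies *AKR1C2* and *AKR1C3* had 51 and 62 reads over the 6 libraries, *AKR1C4* had 1, and reads that fit more than 1 of them make each of these values uncertain.

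*AKR1B10*, a reductase of retinal and aldehydes, is encoded on chromosome 7 (forward strand, 134527592 to 134541408). It had 2, 8 and 5 reads in HGC27-FN1 3′-UTR cells and 9, 5 and 6 reads in control cells, which made 0.0701, 0.188 and 0.0982 RPKM against 0.231, 0.0930 and 0.0929 RPKM. The highest value was a control library and the lowest an HGC27-FN1 3′-UTR library of 2 reads. Neither reductase met the minimum for the test, and the values of both overlapped between the groups.

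A wider list of 73 genes of the pathway was counted in the same fit, and 70 were tested. Of these, 8 were called higher, 8 lower and 54 were not called, that is 11.4% in each direction beside the 5.62% and 7.36% of all tested genes. Of the 70, *HTATIP2*, *PTGR1* and *ABCC3* reached the minimum RPKM only in the 3 HGC27-FN1 3′-UTR libraries, where they were high, so they could enter the test only with a difference. Without such genes 6 of 67 were higher (8.96%) and 8 lower (11.9%), beside 5.20% and 7.32% of the 22983 other tested genes. *GPX2*, for which control replicate 3 alone of the controls reached the minimum, stayed among the 67. The median log2 fold change was 0.00, and values ran from -0.68 to 1.44. Of the 8 called higher, 4 had a mean RPKM under 1, and all 8 called lower had a mean RPKM of at least 1. Among the 59 genes of the list at a mean RPKM of at least 1, 4 were higher (6.78%) and 8 lower (13.6%), beside 7.02% and 10.3% of all 14652 genes at that level. Groups did not overlap for 17 of the 70 genes in the higher and 18 in the lower direction, beside 14.3% and 21.7% of all tested genes. The 17 include *HTATIP2*, *PTGR1* and *ABCC3*, whose groups could not overlap given how they entered the test. Such genes were not taken out of the shares of all tested genes either.

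The regulators of NRF2 itself included 1 called gene in each direction among 11 tested (9.09% each), beside 5.62% and 7.36% of all tested genes. *KEAP1*, the sensor that holds NRF2 back, was at 35.2 ± 1.34 RPKM in control and 37.3 ± 0.783 RPKM in HGC27-FN1 3′-UTR libraries (SD, n = 3 each), with overlapping groups, a log2 fold change of 0.08 and an adjusted p of 0.195. *BTRC*, the substrate receptor of another ligase that marks NRF2 for degradation, fell from 7.10 to 6.03 RPKM, by 0.23 on the log2 scale (adjusted p = 0.0203). *MAFF*, a small MAF partner, rose from 0.218 to 0.466 RPKM, from 107 and 181 reads in all, with a log2 fold change of 0.84 (adjusted p = 0.0219). Both calls were lost with the replicate block and without several libraries, the *BTRC* call in 5 of 15 alternatives and the *MAFF* call in 6 of 14.

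Glutathione genes had 2 higher (11.1%) and 1 lower (5.56%) among 18 tested, beside 5.62% and 7.36% of all tested genes. *SLC3A2*, the heavy chain that carries the cystine transporter to the membrane, fell from 53.2 to 44.7 RPKM with a log2 fold change of -0.25 ± 0.03 (SE; adjusted p = 0.00808), and this call held in all 15 alternatives. *GGT1*, which cleaves extracellular glutathione, was at 1.15 RPKM in control and 1.63 RPKM in HGC27-FN1 3′-UTR cells (adjusted p = 0.0469), a call lost in 9 of 15 alternatives. *GPX2*, a glutathione peroxidase of the gut epithelium, rose from 11 reads in the 3 control libraries to 42 in the HGC27-FN1 3′-UTR libraries, or from 0.0803 to 0.390 RPKM (adjusted p = 0.0169). It entered the test through the latter libraries, as among the controls only replicate 3, at 0.108 RPKM, reached the minimum. The fitted log2 fold change of *GPX2*, 1.44, depends on the pseudocount. It ran from 0.36 to 2.21 over the 13 alternatives that tested the gene, of which 10 kept the call.

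Among 6 tested genes listed for NADPH supply, 3 were called lower, beside 7.36% of all tested genes. The number called higher in this role is not reported here. *PGD*, a dehydrogenase of the pentose phosphate pathway, fell from 105.9 to 96.9 RPKM (-0.13, adjusted p = 0.0402). *TALDO1*, transaldolase, fell from 26.3 to 23.7 RPKM (-0.15, adjusted p = 0.0318). *IDH1*, cytosolic isocitrate dehydrogenase, fell from 14.7 to 12.0 RPKM (-0.29 ± 0.04, adjusted p = 0.0101), and this call held in all 15 alternatives. The call of *TALDO1* was lost in 7 of 15 alternatives and that of *PGD* in 10.

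The remaining roles are given beside 5.62% called higher and 7.36% called lower of all tested genes. Of the 4 thioredoxin and peroxiredoxin genes 25% were called higher and 0 lower, and of the 7 for haem and iron 0 higher and 14.3% lower. Of the 14 detoxification genes 7.14% were called in each direction. Among the 10 other published targets 20% were called higher and 10% lower. Each share above 0 rests on 1 or 2 genes. *TXNIP*, an inhibitor of thioredoxin, rose from 9.05 to 11.0 RPKM (0.29, adjusted p = 0.0232) and was the called gene among 4 of the thioredoxin and peroxiredoxin system, a call lost in 5 of 15 alternatives. *SLC48A1*, a haem transporter, fell from 3.64 to 2.71 RPKM (-0.41 ± 0.06, adjusted p = 0.0123), a call that held in all 15 alternatives, and was the called gene among 7 for haem and iron. Among 14 detoxification genes, *PIR*, an iron-binding nuclear protein, fell from 9.23 to 8.01 RPKM (-0.20, adjusted p = 0.0317) and lost the call in 8 of 15 alternatives. *PTGR1*, prostaglandin reductase, had 21 reads in control and 61 in HGC27-FN1 3′-UTR libraries (adjusted p = 0.0384), and entered the test only through the latter. Among 10 other published targets, *TRIM16* rose from 9.97 to 11.9 RPKM (0.26 ± 0.04, adjusted p = 0.0135), a call lost in 2 of 15 alternatives, and its near copy *TRIM16L* was at 9.18 and 9.77 RPKM without a call, so reads that fit both make these values uncertain. *HTATIP2* had 5 reads in control and 29 in HGC27-FN1 3′-UTR libraries (adjusted p = 0.0377), and likewise entered the test only through the latter. *CREG1* fell from 6.01 to 4.60 RPKM (-0.38, adjusted p = 0.0189), a call lost in 5 of 15 alternatives. The calls of *PTGR1* and *HTATIP2* were lost in 4 and 5 of the 10 alternatives that tested them.

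**Figure D4:**
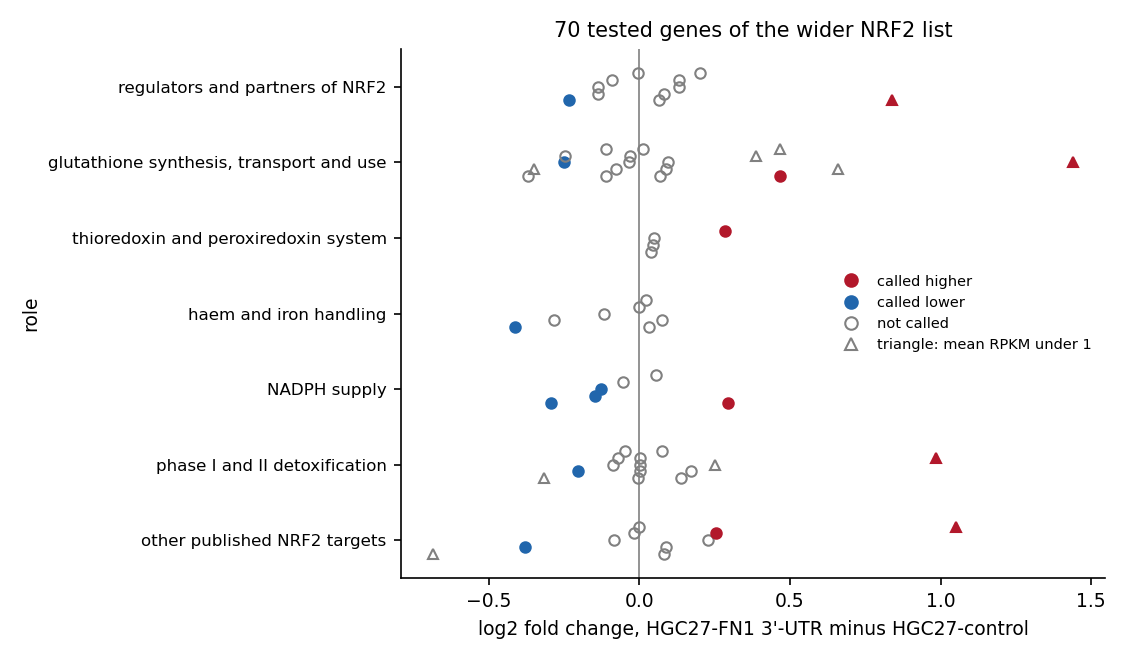
Log2 fold change (HGC27-FN1 3′-UTR minus HGC27-control) of the 70 tested genes of the wider list, by role, with vertical offsets within a role for legibility only. Red and blue are genes called higher and lower, grey are genes not called, and triangles are genes with a mean RPKM under 1. The 3 values above 0.9 are triangles that rest on few reads, and the 8 lower calls lie between -0.41 and -0.13.

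Paralogues of the members were counted beside them, 9 of 12 being tested, with 0 called higher and 1 lower by limma, beside 5.62% and 7.36% of all tested genes. At an unadjusted p under 0.05 there were 1 higher and 2 lower, beside 12.0% and 17.6%, and voom also called 1 higher and 2 lower, beside 8.76% and 13.2%. *NFE2L1*, a paralogue of *NFE2L2*, fell from 59.6 to 54.1 RPKM (-0.14 ± 0.03, adjusted p = 0.0303), a call lost in 9 of 15 alternatives. *NFE2L3* was at 14.0 and 14.6 RPKM in control and HGC27-FN1 3′-UTR cells. *TXNRD2*, the mitochondrial reductase, was at 2.31 and 2.67 RPKM with an adjusted p of 0.0656, and *TXNRD3* at 1.80 and 1.60 RPKM. *NQO2* was at 7.94 and 6.96 RPKM (adjusted p = 0.0570), the constitutive haem oxygenase *HMOX2* at 16.0 and 16.1 RPKM, and *AKR1B1* at 3.65 and 3.66 RPKM. The difference between *TXNRD1* and each paralogue was not tested.

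Other antioxidant genes outside these lists had 0 calls among 10 tested with limma, beside 5.62% of all tested genes called higher and 7.36% lower. At an unadjusted p under 0.05 there were 2 higher and 2 lower, beside 12.0% and 17.6%, and voom called 2 higher and 2 lower, beside 8.76% and 13.2%. *SOD1* was at 425 RPKM in control and 398 RPKM in HGC27-FN1 3′-UTR cells and *SOD2* at 2.77 and 2.69 RPKM, while catalase (*CAT*) was at 6.30 and 5.95 RPKM. *PRDX3*, the mitochondrial peroxiredoxin, was at 12.5 and 15.5 RPKM (log2 fold change 0.31, adjusted p = 0.0722) and *PRDX4* at 20.0 and 22.9 RPKM. *PRDX2*, a cytosolic substrate of sulfiredoxin, was at 27.5 and 23.8 RPKM (-0.21, adjusted p = 0.119). *PRDX5* was at 316 and 304 RPKM, *TXN2* at 14.1 and 13.5 RPKM and *GLRX2* at 8.05 and 7.46 RPKM.

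**Figure D5:**
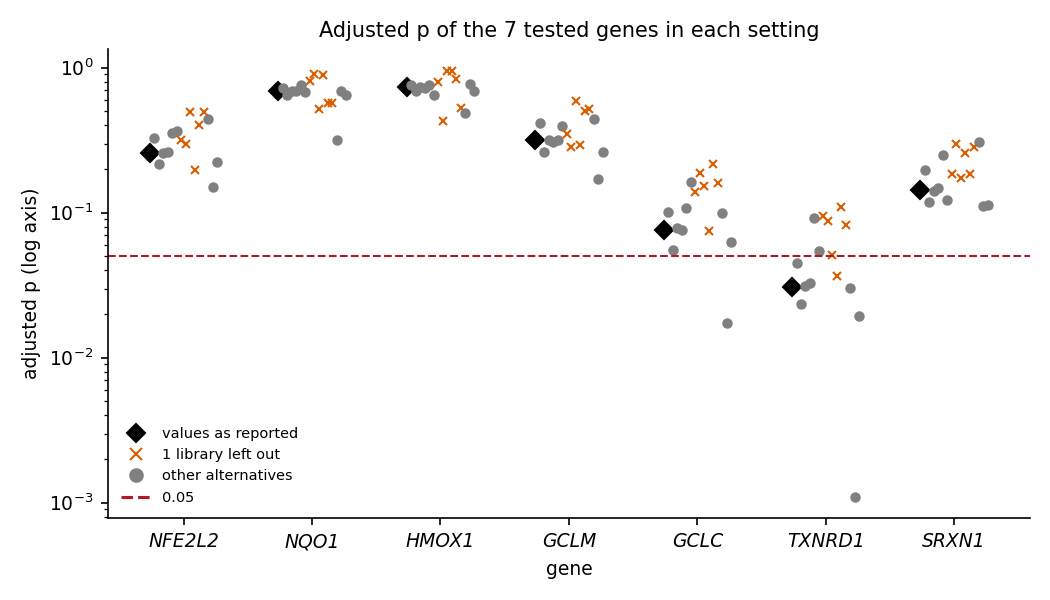
Adjusted p (log axis) of the 7 tested genes as reported (diamonds), with 1 library left out (crosses) and under the other alternatives (circles). The dashed line is 0.05. *TXNRD1* lies on both sides of it, from 0.00110 to 0.110, *GCLC* passes it once at 0.0175, and the other 5 genes never do.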

How the data were processed

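The members and gene lists were chosen with earlier results of these data known. The authors made strand-specific mRNA libraries and deposited RPKM per gene and library, with replicates kept apart. The submitters' processing notes name Trimmomatic 0.36, STAR 2.5.3a, featureCounts of Subread 1.5.1 and GRCh38, and the annotation release, strand setting and handling of duplicates are not given in the sources used here. Start and end of all 9 members equalled those of GENCODE release 29. Reads were recovered from RPKM and gene length, with 100% of values whole within 0.1 read.

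Values were compared as log2(RPKM + 0.1) with limma 3.58.1 in R 4.3.3, two-sided, with group as the only term and a trend in the prior variance, over genes for which 3 or more libraries reached 0.1 RPKM. Adjustment was by Benjamini-Hochberg over all 23299 genes, and fold changes on this scale understate those of low genes. The fit was tested on simulated data with a spread set in advance and not taken from these libraries. That check required only changes far larger than those of the members to be found. Alternatives changed the pseudocount, filter, scaling, prior, block, threshold and libraries, or used voom. Named were all members, *KEAP1*, the called genes of the wider list except 1 that is not reported here, and paralogues and other antioxidant enzymes with a mean RPKM of at least 1, with the 3 genes most like *NFE2L2*. *AKR1C2*, *AKR1C3*, *AKR1C4*, *TRIM16L*, *ABCC3*, *KRT19* and the rows that share exons with members were named outside this rule, after their values were seen. Tables and figures were made with Python 3.11.15, pandas 2.3.3 and matplotlib 3.10.9. Groups were taken from the labels.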

Additional observations from a re-analysis of the deposited data

How the results depend on the processing

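The count of members called higher was 0 with limma without a trend in the prior variance, with the replicate block and at the study's criteria, and 0 to 1 with 1 library left out. The count called lower was 1 with voom, for *GCLC*. In the wider list, 5 genes were higher with a minimum mean RPKM of 1, 2 with the block, 13 with voom, 2 at the study's criteria and 0 to 5 with 1 library left out. There 5 were lower without a trend, 3 with the block, 14 with voom, 0 at the study's criteria and 3 to 5 with 1 library left out. Over all genes, 564 were higher and 598 lower with the block, 2042 and 3066 with voom, and 385 and 190 at the study's criteria, and leaving out 1 library gave 501 to 927 higher and 470 to 1015 lower. The causes of these shifts were not tested, though some settings also had fewer samples or stricter limits.

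Same-numbered libraries deviated from their group means with correlations of 0.00244, 0.0211 and 0.0103. Each HGC27-FN1 3′-UTR library correlated best with its own number, but the labels name no shared culture or day, so the numbers were not taken to pair the samples. Median-ratio scaling moved the median of all genes from -0.04 to 0.00 on the log2 scale and kept the signs of all 7 members. A minimum of 10 reads in every library was added after the data were examined and left both member counts as they were. *AKR1C1* and *AKR1B10* did not reach 0.1 RPKM in 3 or more libraries, and they rest on 130 and 35 reads in all.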
